A study of Sus scrofa with 6 samples.

Results

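The ZNF-named zinc finger genes of porcine 2-cell embryos were examined after depletion of SIN3A, the scaffold protein of a histone deacetylase corepressor complex. The members were selected on their measured values: a gene was taken when its name in the expression table was ZNF followed by a number and when its mean value over the 6 libraries was at least 10. The table held 234 genes with such a name among 17678 genes, and 196 of them passed the minimum. In all, 11986 genes passed the same minimum and were tested, so the comparison group consisted of 11790 other genes. The minimum on the mean makes the levels of the members a description of what the selection kept, and no test was made on them.

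Embryos were parthenotes, which develop from an oocyte without a sperm and carry maternal genomes only. The oocytes came from slaughterhouse ovaries of Landrace, Yorkshire and Duroc crosses, were matured in vitro and were injected at the MII stage, before electrical and chemical activation. NC oocytes received a non-specific siRNA, and KD oocytes received siRNAs against 3 different sites of SIN3A. Each group had 3 replicates of 20 pooled embryos, collected 32 h after parthenogenetic activation, and polyadenylated RNA was sequenced. All embryos thus shared the in vitro maturation, the injection and the activation, and none was fertilized. The study calls its replicates independent, and the labels do not say whether they came from separate oocyte collections, so the p-values below measure the spread between these libraries, which may in part be technical.

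The libraries behaved as their labels say. SIN3A was at 37361, 33964 and 32404 in the NC libraries and at 3271, 1079 and 4173 in the KD libraries, with a log2 change of -3.81 ± 0.31 (SE, n = 3 per group) and an adjusted p of 8.45e-06 by limma. The change was the same without a variance trend and with a robust variance step, but its adjusted p was then 0.423 and 0.469. The values are normalized signal, not reads. The depth estimated from the spacing of the low values was 7820000 to 12900000 reads in NC and 10200000 to 15800000 in KD. Of 12 oocyte and early embryo markers, 10 were found and all 10 were above the minimum, whereas of 8 cumulus and granulosa markers found, 2 were. The summed blood and stroma markers were at 143 to 190 in NC and at 112 to 124 in KD without overlap, HBB was at 74.9 in NC replicate 1 and at 1.96 or less in the others, and the part of these RNAs in the results was not tested. In pooled embryos, fewer cells of a type and less RNA per cell cannot be told apart.

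C2H2 zinc finger proteins form the largest family of DNA-binding proteins in mammals. Each finger is a short loop in which a pair of cysteines and a pair of histidines hold a zinc ion, and an array of fingers reads a run of DNA bases. Many members carry a KRAB domain, which recruits TRIM28 and, through it, the histone methyltransferase SETDB1 and HP1 proteins, and which silences transposable elements and some imprinted loci. Others carry a SCAN domain, through which the proteins pair with each other, and some use their fingers to bind RNA or other proteins. The KRAB genes expanded in clusters along mammalian chromosomes, and the oocyte stores the transcripts of several of them for the time before the embryonic genome is active.

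One finger of 8 members is given as it stands in the genome (RefSeq, Sscrofa11.1, coding strand, 69 bases each), because the family is defined by it. The capitals mark the codons of the 2 cysteines and 2 histidines that bind zinc. The first 4 belong to the members whose unadjusted p was below 0.05. The other 4 have the highest values per kilobase, apart from ZNF445, among the members with a RefSeq match and a finger of this spacing. In each gene the first such finger that lies within a single coding exon was taken.
ZNF770: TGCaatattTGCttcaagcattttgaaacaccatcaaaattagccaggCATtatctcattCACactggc
ZNF445: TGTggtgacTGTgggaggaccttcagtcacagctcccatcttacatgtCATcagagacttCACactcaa
ZNF146: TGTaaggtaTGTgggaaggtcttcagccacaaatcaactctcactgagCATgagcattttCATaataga
ZNF655: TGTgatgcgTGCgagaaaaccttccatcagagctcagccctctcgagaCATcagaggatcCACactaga
ZNF436: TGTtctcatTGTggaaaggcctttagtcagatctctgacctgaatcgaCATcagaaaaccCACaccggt
ZNF451: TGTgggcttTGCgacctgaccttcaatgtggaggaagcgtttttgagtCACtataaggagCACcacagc
ZNF664: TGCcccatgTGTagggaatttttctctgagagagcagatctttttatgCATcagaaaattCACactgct
ZNF513: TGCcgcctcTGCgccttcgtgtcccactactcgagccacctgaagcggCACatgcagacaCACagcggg

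These fingers lie at chr1:136125737-136125805 on the plus strand for ZNF770, at chr13:27753469-27753537 on the minus strand for ZNF445 and at chr6:45598325-45598393 on the plus strand for ZNF146. The finger of ZNF655 is at chr3:6517890-6517958 on the plus strand, that of ZNF436 at chr6:81254047-81254115 on the minus strand and that of ZNF451 at chr7:28710099-28710167 on the minus strand. Those of ZNF664 and ZNF513 are at chr14:29034817-29034885 on the minus strand and at chr3:111773319-111773387 on the plus strand. Outside the capitals, over 57 bases aligned without gaps, pairs of sequences shared from 24.6% of their bases (ZNF770 and ZNF513) to 59.6% (ZNF445 and ZNF655). Over the 165 members with a RefSeq protein, 1401 fingers of this spacing were found, and TGT made up 62.6% of their cysteine codons and CAT 41.8% of their histidine codons. Reads from members that share sequence could in principle be split between them, which was not tested. The 165 matched members had a median of 99.7% of their 31-base words in the longest RefSeq mRNA of no other gene. Among them, ZNF76 with 82.1% and ZNF23 with 2.43% were under 90%, and have uncertain values. The 31 members without a RefSeq match were not assessed in this way.

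Transcripts of the ZNF-named genes were present at low levels. The mean value of the members had a median of 100 (quartiles 34.7 and 335), against 187 (44.7 and 758) for the other tested genes. Per kilobase of the longest RefSeq mRNA, which allows levels to be set against each other between genes, the median was 20.7 for the 165 matched members (quartiles 7.34 and 74.4) and 61.4 for 9592 other matched genes (15.4 and 223). At least 50 per kilobase was reached by 30.9% of the matched members and by 53.9% of the other matched genes, and 5 members (3.03%) stood in the upper 10% of all matched genes. The members' mRNAs were longer, with a median of 4603 bases against 3719, and lower in GC, with 48.1% against 50.7%. These levels rest on the same values as the minimum that selected the members, and are given without a test.

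The members together held a nearly constant part of the measured mRNA. Their share of the summed values was 0.772%, 0.771% and 0.802% in the NC libraries and 0.779%, 0.773% and 0.799% in the KD libraries, so the groups overlapped. The 10 members with the highest mean made up 47.9% of that sum. No member was at 0 in any library, and 12 members had 1 group mean below 10.

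**Figure D1:**
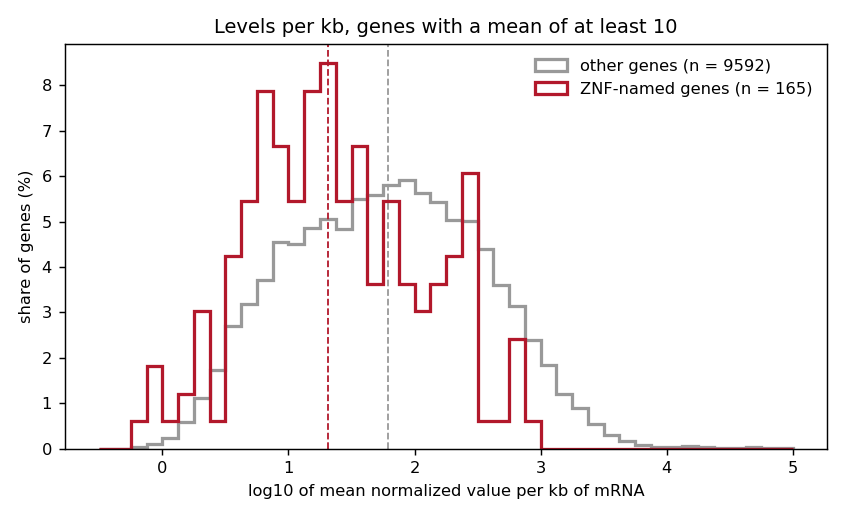
Histogram of the log10 level per kilobase of mRNA (normalized signal averaged over the 6 libraries) as a share of genes in percent, for ZNF-named genes in red and other tested genes with a RefSeq mRNA in grey, with dashed lines at the medians. The members are shifted to lower levels, with a median of 20.7 against 61.4 per kilobase.

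At the threshold itself, ZNF81 (group means 11.4 in NC and 8.59 in KD), ZNF112 (mean 10.2) and ZNF768 (10.4) were just inside, and ZNF790 (9.27), ZNF853 (9.17) and ZNF25 (8.79) just outside. The 38 ZNF-named genes below the minimum were not tested, and none of them was at 0 in all libraries. For 3 members a second source of gene names gave another symbol to the same identifier, namely ZNF212 for ZNF282, ZNF529 for ZNF461 and DGCR2 for ZNF74, so these names are uncertain.

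The most abundant member was ZNF462, a large protein with 34 fingers that is known from pluripotent stem cells and from developmental disorders. It was at 6581, 6963 and 7027 in NC and at 6920, 7156 and 7253 in KD. This placed it at rank 209 of the tested genes, and the groups overlapped, with a log2 change of 0.05 (95% interval -0.11 to 0.22). ZNF398, a KRAB-family gene with no matched RefSeq entry here, followed with 6410, 6546 and 6386 in NC and 6252, 6607 and 6207 in KD, also overlapping. ZNF106, which binds RNA, had the highest level per kilobase of the 165 matched members at 832, a ranking that leaves out ZNF398. Its values were 6492, 6060 and 5875 in NC and 6006, 6210 and 6460 in KD, again overlapping.

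ZNF445 was the fourth most abundant member and, among the matched members, the second per kilobase, at 747. It encodes a KRAB and SCAN protein with 14 fingers that maintains genomic imprints in early embryos (ENSSSCG00000024556, chr13:27748437-27783348, minus strand). It was at 5223, 4311 and 5167 in NC and at 5788, 5495 and 5594 in KD. All 3 KD libraries were above all 3 NC libraries, by a log2 change of 0.20 ± 0.09 (SE, 95% interval 0.01 to 0.40). The unadjusted p of limma was 0.0376 and the adjusted p 0.997, so ZNF445 did not pass the test over all genes. The change fell to 0.11 without NC replicate 2, the lowest of its libraries, and with quantile normalization it was 0.17 with an unadjusted p of 0.0577 by limma. ZFP57, the other KRAB protein known for imprint maintenance, had a mean of 4.22 and was below the minimum.

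Among the remaining members at the top, ZNF436 encodes a KRAB protein with 12 fingers. It was at 4937, 4636 and 5343 in NC and at 4417, 4534 and 4981 in KD, with overlap between the groups. ZNF451, a SUMO ligase, was at 3240, 2947 and 3103 in NC and at 3045, 2990 and 3336 in KD. ZNF703, a corepressor with no finger of the searched spacing, and ZNF598, a ubiquitin ligase that senses collided ribosomes, had group means of 2159 ± 374 and 2000 ± 438 in NC and of 2188 ± 67.0 and 2236 ± 196 in KD (SD, n = 3). ZNF648 and ZNF646, whose roles are little known, completed the 10 most abundant members at 2997 to 3173 and 2290 to 2351 by group mean. In none of these 6 did the groups separate. Per kilobase, 3 further genes were among the 10 highest of the matched members. ZNF664 stood at 324 per kilobase, ZNF513 at 316 and ZNF777, a KRAB gene, at 305. ZNF777 was at 821, 867 and 925 in NC and at 970, 907 and 1048 in KD, with a log2 change of 0.16 (-0.06 to 0.38) and overlapping groups, and the changes of ZNF664 and ZNF513 were 0.03 and 0.07. The plot of the most abundant members shows how close the libraries lie at this level.

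**Figure D2:**
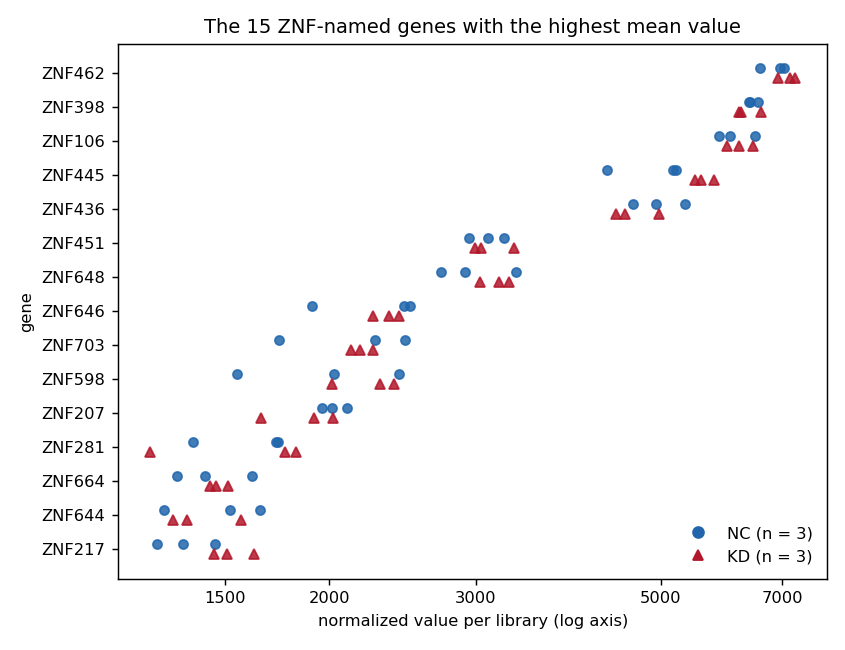
Values of the 15 most abundant ZNF-named genes in each library (normalized signal, log axis), with NC libraries as blue circles and KD libraries as red triangles. In this plot ZNF445 is the member whose 3 KD values all lie above its 3 NC values.

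The comparison of KD with NC asked whether transcript levels of this family differed after depletion of SIN3A. The paper describes the genome of porcine 2-cell embryos as generally believed to be silent. Repression of these genes by SIN3A was not tested. No member passed an adjusted p of 0.05, where 19 of the 11986 tested genes did (0.159%), and the lowest adjusted p of a member was 0.977. At an unadjusted p below 0.05, 4 members (2.04%) were found, 1 higher and 3 lower in KD, where 4.61% of all tested genes were found. The split was not stable: it was 0 higher and 4 lower with quantile normalization, 6 and 5 without a variance trend, 3 and 0 without NC replicate 1, and 1 and 0 without KD replicate 2. The groups did not overlap for 23 members (11.7%), 13 higher and 10 lower in KD, against 9.79% of all tested genes. The share without overlap was near the background and is no result about the members. The share at an unadjusted p depended on the fit, and without a variance trend it was 5.61% against 5.19% of all tested genes.

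The distribution of changes was centred at 0. The members' median log2 change, KD minus NC on the log2(value + 1) scale, was -0.002 (quartiles -0.15 and 0.17), and 95 members were higher and 101 lower in KD. For the other tested genes the median was 0.0027 (quartiles -0.12 and 0.12). The difference between the medians was -0.0048, and it ran from -0.0158 to 0.0127 when a library was left out. The members' median deviation in single libraries had an SD of 0.0222 between replicates, which is not an error of that difference. The members' quartiles were wider than those of the other genes. In the same range of levels their median absolute change was also larger, at 0.27 against 0.23 for means from 10 to 100 and 0.12 against 0.10 from 100 to 1000, whereas it was 0.05 against 0.07 at 1000 or more.

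**Figure D3:**
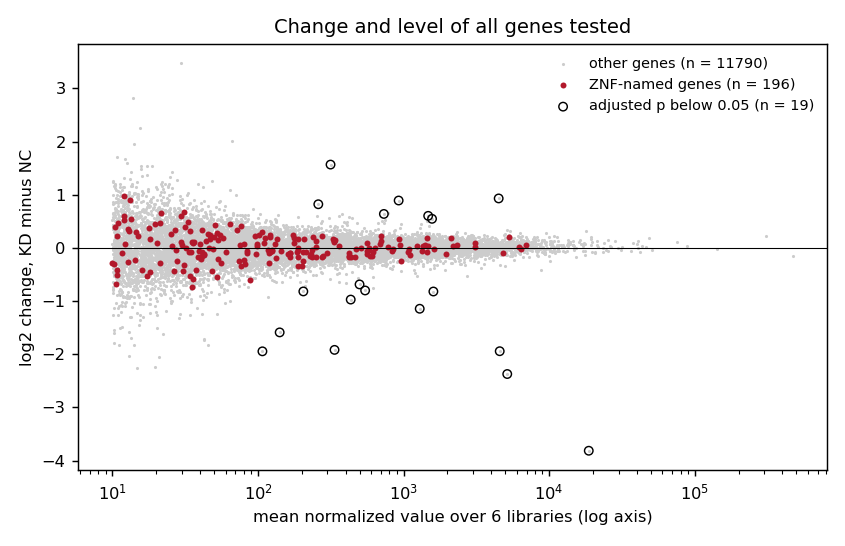
Log2 change, KD minus NC, against the mean value over 6 libraries (log axis) for each ZNF-named gene in red and for the other tested genes in grey, with circles around the 19 genes at an adjusted p below 0.05. The changes of the members spread evenly about 0 and narrow with level, and none of them is circled.

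Few members had large estimated changes, and these were of low level. An absolute log2 change above 0.8, the size the study used for its own calls, was reached by 2 members (1.02%) and by 283 other genes (2.4%). A change above 1 was reached by 0 members and by 140 other genes (1.19%). The largest rise was that of ZNF175, a KRAB gene known as an antiviral factor against HIV, at 10.4, 7.32 and 5.97 in NC and 13.6, 18.7 and 16.4 in KD. The groups did not overlap, but the log2 change of 0.97 had an interval of -0.08 to 2.03. ZNF394 was next, at 7.29, 8.76 and 10.3 in NC and 18.5, 11.5 and 23.1 in KD, with a change of 0.89 (-0.14 to 1.93). Both had an NC mean below 10 (7.91 and 8.78) and passed the minimum through their KD values alone, so a difference between the groups was built into their selection. The lowest estimate belonged to ZNF300, at -0.74 (-1.95 to 0.47), whose KD values of 62.3, 29.5 and 5.48 spanned the NC values of 45.9, 35.1 and 33.3. These 3 genes were singled out after their values were seen.

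The intervals give the sizes of change that each gene's values allow. The 95% interval of the log2 change, for single genes and not adjusted over the members, lay within -1 and 1 for 145 members (74.0%), against 80.2% of the other genes, and within -0.5 and 0.5 for 76 members (38.8%), against 49.4%. Precision followed the level. In 98 members with a mean from 10 to 100 the median width to either side was 0.71, in 76 members from 100 to 1000 it was 0.32, and in 22 members of at least 1000 it was 0.21. The other genes had 0.74, 0.31 and 0.20 in the same ranges. The variance trend of the fit draws each gene's variance toward that of genes at its level. These similar widths therefore do not show that the members were measured as well as other genes.

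**Figure D4:**
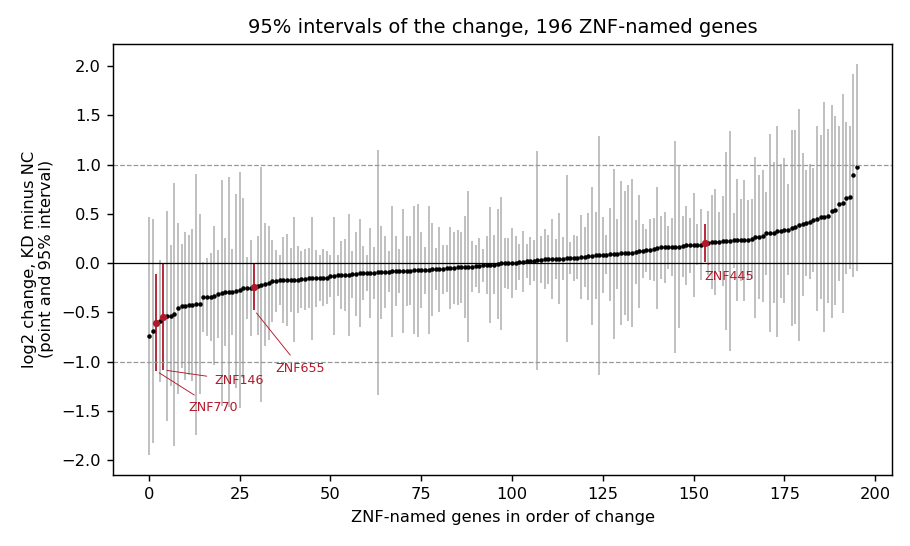
Log2 change (KD minus NC) of the 196 ZNF-named genes in ascending order, each with its 95% interval, and dashed lines at -1 and 1. The 4 members in red have an unadjusted p below 0.05; for the remaining 192 the interval spans 0.

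Besides ZNF445, 3 members had an unadjusted p below 0.05, all lower in KD. ZNF770 (ENSSSCG00000004799, chr1:136121105-136129838, plus strand), a protein with 10 fingers and neither KRAB nor SCAN, was at 119, 87.6 and 111 in NC and at 69.1, 53.1 and 89.0 in KD. The highest KD library exceeded the lowest NC library, so the groups overlapped. The log2 change was -0.60 ± 0.23 (SE, unadjusted p = 0.0192, adjusted p = 0.977 by limma), with an exact two-sided permutation p of 0.2.

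ZNF146 (ENSSSCG00000025355, chr6:45520885-45603213, plus strand) encodes a protein made of little but its 10 fingers. It was at 74.8, 59.8 and 53.9 in NC and at 45.7, 40.9 and 40.4 in KD, and the groups did not overlap. Its log2 change was -0.55 ± 0.25 (SE, unadjusted p = 0.0459, adjusted p = 0.997 by limma). ZNF655 (ENSSSCG00000007617, chr3:6504699-6521051, plus strand), a KRAB gene whose protein is known to bind the signalling protein VAV1, was at 1073, 1003 and 1055 in NC and at 968, 755 and 944 in KD. All 3 KD values were below the NC values, by a log2 change of -0.24 ± 0.11 (SE, unadjusted p = 0.0474, adjusted p = 0.997 by limma). Without KD replicate 2 the change of ZNF655 was -0.13. For ZNF445, ZNF146 and ZNF655 the exact permutation p was 0.1, the smallest that 3 against 3 libraries allow.

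The 23 members whose groups did not overlap spanned the whole range of levels. Below a mean of 50, for example, ZNF226 was at 43.1, 44.6 and 41.4 in NC and at 25.0, 33.8 and 26.8 in KD, with a log2 change of -0.59 (-1.21 to 0.03). ZNF630, a KRAB gene of the X chromosome, was higher in KD, at 16.7, 17.5 and 15.4 in NC and at 28.2, 23.7 and 28.5 in KD, with a change of 0.66 (-0.11 to 1.43). At a higher level ZNF407 was at 635, 621 and 660 in NC and at 612, 601 and 599 in KD, a change of only -0.08. A lack of overlap thus went with estimates from small to large, and for 20 of the 23 the 95% interval included 0. These examples were chosen after their values were seen.

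Members with known roles were followed from a list of 27 symbols, of which 24 were members and ZNF593, ZNF592 and ZNF296 were not found by name. Of these 24, 16 had a higher and 8 a lower estimate in KD, with changes between -0.42 and 0.54 and a median of 0.05. None passed the adjusted test, 1 (ZNF445) had an unadjusted p below 0.05, and the groups did not overlap in 3. These shares, 4.17% and 12.5%, were near the 4.61% and 9.79% of all tested genes.

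The group listed under chromatin corepressors had 7 members, not all of them known here as partners of a corepressor. ZNF217 works with CoREST and CtBP, and ZNF644 is a partner of the H3K9 methyltransferases G9a and GLP. ZNF687 and ZNF532 join ZMYND8, and the others were ZNF827, ZNF410 and ZNF274. These 7 ran from 12.9 (ZNF274) to 1442 (ZNF644) in mean value, and 5 were estimated higher and 2 lower in KD. ZNF217 was at 1244, 1334 and 1460 in NC and at 1624, 1456 and 1509 in KD, with a log2 change of 0.19 (-0.02 to 0.39), and its groups overlapped. ZNF274, which brings SETDB1 to the 3' ends of zinc finger genes themselves, had a change of 0.32 with an interval of -0.75 to 1.39, too wide to place it. ZNF410, known for its control of CHD4, was similar, at 0.26 (-0.56 to 1.08).

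Of the 5 RNA-binding members, ZNF106, ZNF318, ZNF638 and ZNF326 had changes from -0.03 to 0.04. ZNF346, which binds double-stranded RNA, was at 41.9, 31.9 and 51.3 in NC and at 17.3, 48.3 and 32.9 in KD, with overlap. In the group that serves ribosomes and translation, ZNF598 had a change of 0.18 (-0.09 to 0.46) and ZNF622, which matures the large ribosomal subunit, 0.48 (-0.40 to 1.36). Both rest on single libraries, with 0.0091 for ZNF598 without NC replicate 1 and 0.332 without NC replicate 2, and 0.0753 for ZNF622 without KD replicate 3 and 0.9631 without KD replicate 1. ZNF207, which loads BUB3 at kinetochores, was at 2104, 2017 and 1960 in NC and at 2023, 1917 and 1657 in KD, with a change of -0.12 (-0.33 to 0.08).

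Of the promoter-binding factors, ZNF384 was at 10.4, 11.7 and 10.2 in NC and at 15.6, 18.8 and 14.2 in KD. The groups did not overlap, yet at this level the interval ran from -0.42 to 1.49. ZNF24 was lower in all 3 KD libraries, at 538, 589 and 595 against 620, 690 and 603, with a change of -0.15 (-0.39 to 0.09). ZNF143, which binds many promoters and chromatin loop anchors, had group means of 436 ± 7.46 in NC and 410 ± 46.8 in KD (SD, n = 3), and ZNF281, known from pluripotent cells, had 1611 ± 206 and 1605 ± 334. For both, the change was within the replicate spread. ZNF148 and ZNF131 had estimates of 0.19 and 0.47, with intervals that spanned 0.

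By protein class, members with KRAB and no SCAN had the lowest median level per kilobase, at 16.3, while those with both domains had 24.9. Of the 165 members with a RefSeq protein, 72 had a KRAB domain, 8 of them with a SCAN domain, 7 had SCAN alone, 70 had 3 or more fingers and neither domain, and 16 had 0 to 2 fingers of the searched spacing. The median level was 16.3 per kilobase for the 72 KRAB members (quartiles 7.21 and 79.2) and 21.9 for the 93 without KRAB (8.96 and 74.4), so the classes overlapped widely. The 16 members with few fingers, among them ZNF598, ZNF207 and ZNF703, had the highest median at 43.3. KRAB mRNAs also had the lower GC content, with a median of 45.5% against 52.4%.

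The median change of every class was close to 0. KRAB members had a median log2 change of -0.03, with 31 higher and 41 lower in KD, and the members without KRAB had 0.02, with 48 higher and 45 lower. The difference of these medians was -0.0547, and it turned to 0.0097 after a correction for GC content and length. Of the 72 KRAB members 2 had an unadjusted p below 0.05, and of the 93 without KRAB 2, where 4.61% of all tested genes did. The class with KRAB and SCAN, 8 members, had a median of 0.11, and that with SCAN alone, 7 members, of -0.08. By finger number the medians were 0.03 for 0 to 2 fingers, -0.05 for 3 to 6, 0.09 for 7 to 10, -0.05 for 11 to 14 and -0.04 for 15 or more, with no steady order. No class had a member past the adjusted test.

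**Figure D5:**
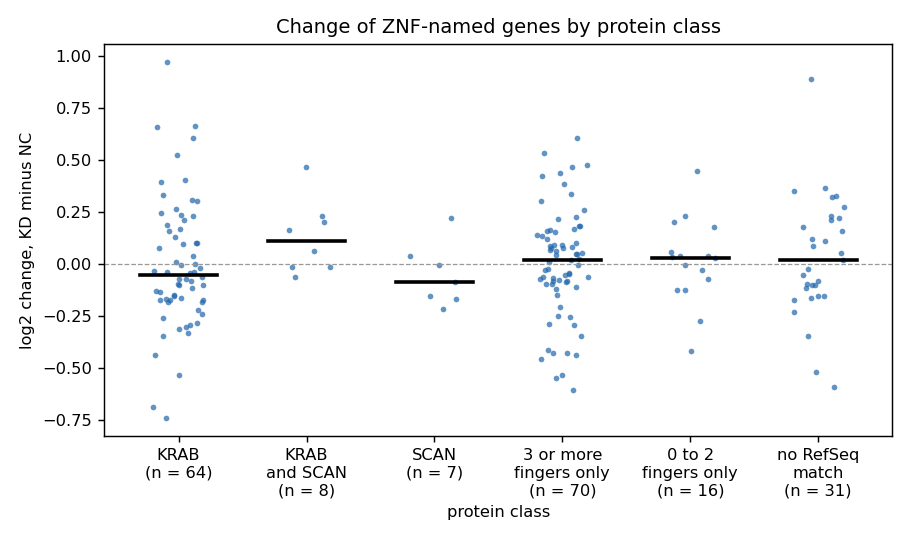
Log2 change (KD minus NC) of each ZNF-named gene by protein class, with a bar at the median of the class. The medians lie between -0.08 (SCAN) and 0.11 (KRAB and SCAN), and the classes overlap throughout.

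The members were unevenly placed in the genome. Chromosome 6 held 53 of the 165 members with a position, chromosome 3 held 22, chromosome 1 held 11 and chromosome 14 held 10. When members within 500 kb of the next were joined, 13 loci had 3 or more members, and they held 61 members in all. The 53 members of chromosome 6 had a median level of 17.8 per kilobase and a median log2 change of -0.04, with 23 higher and 30 lower in KD, and the 11 members of chromosome 1 had 36.5 per kilobase and 0.04. Of the 72 KRAB members 39 lay in such loci (54.2%), and of the 93 others 22 (23.7%).

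The largest locus was chr6:45520885-46468679, with ZNF146, ZNF565, ZNF567, ZNF382, ZNF260, ZNF566, ZNF383, ZNF527 and ZNF570, of which 7 are KRAB genes. The levels of these neighbours ranged from 7.3 to 119 per kilobase and their log2 changes from -0.55 to 0.34, with 4 higher and 5 lower in KD. ZNF260, higher in KD, and ZNF146, lower, lie in this locus, and the groups overlapped for neither. The change of ZNF260 was 0.34, with an interval of -0.12 to 0.80 that included 0. Of the 9 genes of this locus, 2 had groups without overlap, against 9.79% of all tested genes, and this difference was not tested. The pair was picked out after its values were seen. In a locus of 6 at chr6:50442180-51008492, from ZNF576 to ZNF180, all 6 estimates were below 0, from -0.31 to -0.0022. In one of 3 at chr10:25283962-25735073, with ZNF782, ZNF510 and ZNF367, all were above 0, from 0.19 to 0.31. No member of these 2 loci had an unadjusted p below 0.05, and both were picked out after their values were seen. ZNF445 lies beside ZNF197 and ZNF35 at chr13:27748437-27920494, where levels ran from 0.901 to 747 per kilobase.

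Zinc finger genes with other names were counted in the same way. Of 9 tested ZFP genes, 9 ZSCAN genes, 6 ZKSCAN genes and 27 ZBTB genes, none passed the adjusted test, and an unadjusted p below 0.05 was found for 0, 0, 0 and 2 of them. For the ZBTB genes this is 7.41%, against 4.61% of all tested genes, and 6 of the 27 (22.2%) had groups without overlap, against 9.79%; these differences were not tested. Their median levels per kilobase were 49.4 for ZFP, 14.5 for ZSCAN, 11.7 for ZKSCAN and 25.3 for ZBTB genes. Their median log2 changes were 0.12, 0.11, -0.11 and 0.04, each over few genes.

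The partners through which KRAB proteins silence chromatin were mostly abundant and none passed the adjusted test. Of 21 listed symbols 17 were found and 16 tested. Not found by name were the HP1 genes CBX1 and CBX3, RESF1, and TASOR, another name of FAM208A. Of the 16 tested, 8 had a higher and 8 a lower estimate in KD, with a median of -0.0035. No adjusted p by limma was below 0.997. TRIM28, the corepressor that KRAB domains bind, was at 1635, 1875 and 1838 in NC and at 2193, 2049 and 1688 in KD, with a change of 0.14 (-0.08 to 0.37). SETDB1, which methylates H3K9, was at 4434, 4476 and 4455 in NC and at 4078, 4418 and 4630 in KD. The HP1 gene CBX5 had group means of 2832 ± 273 and 2879 ± 47.5 (SD, n = 3). In all 3 the groups overlapped.

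The maintenance DNA methyltransferase DNMT1, which copies DNA methylation and acts with TRIM28 at imprints, stood far above any zinc finger gene, at 310640, 288202 and 257780 in NC and 342567, 351980 and 299669 in KD. Its groups overlapped, with a change of 0.22 (-0.0017 to 0.43). When a library was left out, the change ran from 0.14 to 0.29. The adjusted p of DNMT1 by limma was 0.112 or more in every alternative. With quantile normalization its change was 0. That scaling sets each value by its rank within the library, so it cannot decide whether so abundant a gene changed. PPHLN1, a subunit of the HUSH silencing complex, was the single gene of the 16 tested on this list with an unadjusted p below 0.05. It was also the single one of the 16 whose groups did not overlap. Over all tested genes these shares were 4.61% and 9.79%, so 1 of 16 is no result about the list. It was at 2583, 2547 and 2407 in NC and at 2331, 2154 and 2128 in KD, lower in all 3, by a log2 change of -0.19 ± 0.09 (SE, unadjusted p = 0.0459, adjusted p = 0.997 by limma). The other HUSH genes, MPHOSPH8 and FAM208A, had changes of -0.01 and -0.12 with overlapping groups.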

How the data were processed

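The authors assigned reads to porcine transcripts (Sscrofa11.1) with Salmon 0.14.1 and compared groups with DESeq2, according to the study's methods and the submitters' processing notes. The deposited table holds normalized signal per Ensembl gene: the values are not whole, 53.2 to 70.7% of low values fell on a single step per library (within 0.05 of a step), and library sums were nearly equal, so no count test was run. Spike-in mRNAs were not used here, so total mRNA per embryo was not assessed. All 6 columns were mapped by name to their samples.

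The test was that of limma 3.58.1 (R 4.3.3), fitted to log2(value + 1) of genes with a mean of at least 10, with a variance trend and Benjamini-Hochberg adjustment over all 11986 genes. This fold scale understates changes of low genes. Exact two-sided permutation tests used scipy 1.17.1. Other steps used Python 3.11.15, numpy 2.4.6, pandas 2.3.3, pysam 0.24.0, and matplotlib 3.10.9.

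Members and lists were chosen with earlier results of these data known. Named genes were the 10 members with the highest mean and the 10 highest per kilobase, members with an unadjusted p below 0.05, the role list, the 3 genes on either side of the minimum, SIN3A and the KRAB silencing list. Positions, mRNA lengths and proteins came from RefSeq by symbol (165 of 196 members, 84.2%). Fingers were counted as C-x(2-4)-C-x(12)-H-x(3-5)-H, widened after the first counts were seen, and KRAB and SCAN domains were found with pyhmmer 0.12.3 profiles built from 95 and 25 seed windows (E of at most 0.001), in place of the short patterns planned. Counting error grows as the value falls, and depths are estimates from value spacing. Other pseudocounts, filters, scalings, variance models, a replicate block, a GC and length correction and the omission of each library were tried.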

Additional observations from a re-analysis of the deposited data

How the results depend on the processing

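No member passed an adjusted p of 0.05 by limma in any of the 17 alternatives, in which the lowest adjusted p of a member ran from 0.364 to 1.0, and no gene of the KRAB silencing list did. At an unadjusted p below 0.05 there were 4 members (2.04%, against 4.61% of all tested genes). There were 2 with a mean of at least 100 (2.04% against 4.83%) and 11 without a variance trend (5.61% against 5.19%). When a library was left out there were 1 to 7. The 7 were without KD replicate 1 (3.57% against 4.36%), and the 1 was without KD replicate 2 (0.51% against 3.55%). An unadjusted p below 0.05 was kept by ZNF770 in 13 of 16 alternatives, by ZNF445 in 11 of 17, by ZNF146 in 8 of 16 and by ZNF655 in 12 of 17. Many of these alternatives refit the same 6 libraries, and the 4 members were picked by this p. Of the 6 fits without a library, it was kept in 3 for ZNF770, 2 for ZNF445, 1 for ZNF146 and 2 for ZNF655. Over all genes, 19 calls became 31 with the GC and length correction, 45 with this and the replicate block, 0 without a variance trend and 11 to 19 when a library was left out. SIN3A kept its change of -3.81 but not its call without a variance trend (adjusted p = 0.423) and with the robust step (adjusted p = 0.469), and had -4.20 to -3.22 when a library was left out; the cause was not tested. The members' median ran from -0.015 to 0.019 when a library was left out. The median of KRAB members minus that of the other matched members changed to 0.0097 with the GC and length correction, blocked or not, and ran from -0.0585 to 0.0438 when a library was left out (0.0438 without NC replicate 1), so its sign depends on these choices.

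The replicate numbers are shared by the groups, and the labels do not say whether same-numbered libraries are pairs. The deviations of same-numbered libraries correlated at 0.1094, 0.1112 and 0.0872, and those of differently numbered ones at -0.0828 to -0.0215. Every library thus correlated best with its own number. The main fit did not take them as pairs, since the last value was under 0.1, but a pairing remains possible. With the replicate block, 0 members passed the adjusted test, and 26 of all genes were called. An unadjusted p below 0.05 was then found for 5 members (2.55%), against 5.64% of all tested genes.

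Of 894 comparisons of 54 other named genes, 55 turned the direction, in 25 genes, and 839 did not. Leaving out 1 library moved the change by over 1.5 times, or turned it, in 46 of the 54. With quantile normalization, which sets values by rank, DNMT1 was at 0, ZNF106 at -0.0028 and ATF7IP at -0.0120. Under the GC and length correction, blocked or not, ZNF646 was at -0.0554, ZNF703 at -0.0377, ZNF638 at 0.0026, MORC2 at -0.0371, MORC3 at 0.0181 and SUMO2 at 0.0186. When a library was left out, the log2 change ran from -0.0394 to 0.0393 for ATF7IP, -0.0199 to 0.1058 for CBX5, -0.2735 to 0.0007 for FAM208A, -0.0168 to 0.0360 for MORC2, -0.0521 to 0.0425 for MORC3, -0.0975 to 0.0818 for MPHOSPH8, -0.0697 to 0.0218 for SETDB1, -0.0007 to 0.2303 for SMARCAD1, -0.0115 to 0.0605 for ZNF106, -0.1588 to 0.0010 for ZNF143, -0.0315 to 0.5215 for ZNF274, -0.1313 to 0.1656 for ZNF281, -0.0081 to 0.0771 for ZNF318, -0.0499 to 0.1282 for ZNF326, -0.0504 to 0.5221 for ZNF410, -0.0362 to 0.0452 for ZNF451, -0.0684 to 0.2130 for ZNF513, -0.1110 to 0.0627 for ZNF532, -0.1683 to 0.1293 for ZNF638, -0.1776 to 0.0138 for ZNF644, -0.0779 to 0.1169 for ZNF646, -0.0413 to 0.1082 for ZNF664, -0.1127 to 0.1379 for ZNF703 and -0.1146 to 0.2774 for ZNF827. Intervals were widest for members with a mean below 100; depth and the spread between libraries were not separated.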
